A study of Mus musculus with 10 samples.

Results

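The aminoacyl-tRNA synthetases are the enzymes that load each tRNA with its amino acid before translation. Their genes were taken by name from the RefSeq annotation of mouse build mm10: every protein-coding gene with a symbol of 1 capital letter followed by ars, with or without a closing 1 or 2, and in addition Eprs, Farsa and Farsb. This gave 37 of 21887 protein-coding genes, of which 20 encode cytosolic enzymes and 17 encode mitochondrial enzymes. Gars and Kars, counted here as cytosolic, serve both compartments. A gene was counted as carrying a peak in a library when the summit of a listed peak lay from 5 kb before to 5 kb after the gene.

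Binding of XBP-1 in livers of C57BL/6J mice was mapped by ChIP-seq, which sequences the DNA recovered with an antibody, here an antibody to Xbp-1s, the spliced and active form. The 8 immunoprecipitated libraries formed 4 groups of 2: Fasted (fasted wild-type mice), Fed (fed wild-type mice), Ern1-LKO (a liver-specific deletion of Ern1) and WT (wild-type controls of that deletion). Fasted and Fed peaks were called against 1 input library, and Ern1-LKO and WT peaks against another, so groups were compared only within each of these pairs. The labels give neither the length of the fast, nor the feeding state of the Ern1-LKO and WT mice, nor ages, nor how Ern1 was deleted, and they do not say which libraries came from separate animals. A p-value therefore measures only the spread between these libraries, which may be technical. With 2 libraries against 2, the exact two-sided permutation test used here cannot give less than 0.33.

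The lists differed greatly in length. They held 53973 and 19237 peaks in the Fasted libraries, 82975 and 47357 in the Fed libraries, 698 and 30796 in the Ern1-LKO libraries and 6258 and 30327 in the WT libraries, from between 4340956 and 17399899 kept tags. Ern1-LKO replicate 1 stood apart with the shortest list in spite of 11995890 kept tags, and Fasted replicate 2 had the shortest list of its pair of groups. WT replicate 1 also had a short list, with 6258 peaks from 14072378 kept tags. Differences between groups are given with and without these libraries. A gene without a listed peak had none past the authors' q cutoff of 0.05, which is not a measure of absent binding. Peak lists measure no expression, so they check neither the tissue nor the loss of Ern1. Of 8 hepatocyte marker genes, 3 and 2 had a peak in Fasted, 4 and 2 in Fed, 1 and 2 in Ern1-LKO and 2 and 4 in WT libraries. Of 20 marker genes of other liver cell types, 16 and 9 had a peak in Fasted, 17 and 15 in Fed, 0 and 10 in Ern1-LKO and 1 and 12 in WT libraries. For all protein-coding genes the shares were 73.1% and 43.6% in Fasted and 76.1% and 71.2% in Fed libraries. They were 3.58% and 62.4% in Ern1-LKO and 19.6% and 65.0% in WT libraries.

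As background, the cytosolic synthetases supply the ribosomes that make all nuclear-encoded proteins, including the secreted proteins of the liver. The mitochondrial synthetases are also encoded in the nucleus and are imported. Several cytosolic members sit together in the multisynthetase complex, and many cytosolic synthetase genes are known targets of ATF4, the factor that responds to amino acid shortage and to the PERK arm of the unfolded protein response. XBP-1 belongs to another arm of that response. The product of Ern1 splices Xbp1 mRNA in the stressed endoplasmic reticulum, and the protein made from it binds DNA elements with an ACGT core at genes for folding and secretion.

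The RefSeq promoter table of GRCm38.p6, the assembly of mm10, holds windows from 250 bases before to 49 bases after an annotated start for 27 of the 37 members and for 17492 genes in all. Among the members without a window were Vars, Wars, Cars and Pars2. The windows of Iars2, Eprs, Ears2 and Yars2 are printed because these members had a peak at the start in every library but Ern1-LKO replicate 1. They are given 5′ to 3′ on the strand of the gene. Iars2 lies at chr1:185329352-185329651 on the minus strand, Eprs at chr1:185362794-185363093 on the plus strand, Ears2 at chr7:122067037-122067336 on the minus strand and Yars2 at chr16:16302715-16303014 on the plus strand. Capitals mark matches to ACGTG or CCACG on either strand, which are the core letters of the elements that XBP-1 and ATF6 bind.
Iars2: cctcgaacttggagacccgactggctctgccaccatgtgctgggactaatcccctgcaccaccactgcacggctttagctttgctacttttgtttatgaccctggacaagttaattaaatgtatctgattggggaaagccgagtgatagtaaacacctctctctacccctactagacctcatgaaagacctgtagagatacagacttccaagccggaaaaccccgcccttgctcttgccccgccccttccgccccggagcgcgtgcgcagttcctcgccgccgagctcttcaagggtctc
Eprs: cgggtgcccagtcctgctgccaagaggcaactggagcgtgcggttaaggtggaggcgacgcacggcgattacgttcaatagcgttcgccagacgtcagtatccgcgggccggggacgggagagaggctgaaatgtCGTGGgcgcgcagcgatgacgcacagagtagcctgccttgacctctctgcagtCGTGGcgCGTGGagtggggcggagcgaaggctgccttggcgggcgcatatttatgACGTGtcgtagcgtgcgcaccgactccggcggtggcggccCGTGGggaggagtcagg
Ears2: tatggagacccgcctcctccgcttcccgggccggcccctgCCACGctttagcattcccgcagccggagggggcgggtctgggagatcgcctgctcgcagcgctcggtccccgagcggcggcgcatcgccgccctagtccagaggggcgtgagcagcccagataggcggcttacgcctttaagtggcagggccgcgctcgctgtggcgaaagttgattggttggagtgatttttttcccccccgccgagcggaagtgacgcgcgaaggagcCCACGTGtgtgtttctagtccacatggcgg
Yars2: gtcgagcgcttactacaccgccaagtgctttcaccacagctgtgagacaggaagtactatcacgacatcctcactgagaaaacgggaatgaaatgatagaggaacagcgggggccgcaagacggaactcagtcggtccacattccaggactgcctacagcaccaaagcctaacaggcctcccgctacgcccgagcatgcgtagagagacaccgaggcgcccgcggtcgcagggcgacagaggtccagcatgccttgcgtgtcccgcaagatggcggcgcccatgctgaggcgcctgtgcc
Ears2 held overlapping matches of both motifs just after its start, and Eprs held 5 matches across the window. No match lay in the windows of Iars2 and Yars2. The summits lay before the start at Ears2, and after the start in at least 6 libraries at each of the other 3 genes, mostly beyond the 3′ end of the printed window.

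Over all members with a window, ACGTG was found in 10 of 27 (37.0%), against 23.2% of 17492 genes. CCACG was found in 16 (59.3%), against 40.4%. The motifs may overlap, as in CCACGTG. The longer form GCCACGT was found in Tars alone (3.70%, against 3.39%), and neither TGACGTGG (0.823% of all genes) nor the ER stress response element, CCAAT and CCACG 9 bases apart (0.166%), was found in any member. All motifs were searched on both strands, a gene with several windows counted where any of them matched, and a match describes letters in this window only. The ATF4-type letters TTGCATCA were found in 4 members (14.8%), against 1.01% of all genes. The shorter TGATG, which overlaps TTGCATCA on the opposite strand, was found in 12 members (44.4%), against 39.2%, and TGACGTCA in no member, against 2.54%.

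The stretches with TTGCATCA are printed because their 4 genes, all cytosolic, are on the list of ATF4-responsive synthetases described below. Aars lies at chr8:111033700-111033767 on the plus strand, Iars at chr13:49682107-49682174 on the plus strand, Tars at chr15:11399636-11399703 on the minus strand and Yars at chr4:129189876-129189943 on the plus strand. Capitals mark the match, which at Yars reads on the opposite strand.
Aars: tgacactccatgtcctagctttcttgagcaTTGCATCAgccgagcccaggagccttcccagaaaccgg
Iars: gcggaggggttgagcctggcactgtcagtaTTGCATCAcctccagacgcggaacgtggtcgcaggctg
Tars: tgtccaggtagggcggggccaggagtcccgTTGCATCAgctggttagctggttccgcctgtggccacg
Yars: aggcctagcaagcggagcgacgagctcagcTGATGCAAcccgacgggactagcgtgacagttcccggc
Of these genes, Yars had a peak within 1 kb of its start in 6 libraries, Aars and Tars in 5 each and Iars in 2.

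Synthetase genes carried XBP-1 peaks in most libraries, and at a larger share than genes at large in 7 of 8. A peak was listed at 36 and 22 of the 37 members in the Fasted libraries, where 73.1% and 43.6% of all protein-coding genes had one. In the Fed libraries it was listed at 37 and 36 members, against 76.1% and 71.2% of all genes. In the Ern1-LKO libraries the counts were 1 and 29, against 3.58% and 62.4% of all genes, and in the WT libraries 18 and 32, against 19.6% and 65.0%. The single member in Ern1-LKO replicate 1 (2.70%) is a share close to that of all genes in that library. Members were longer than genes at large, with a median of 27.8 kb against 17.2 kb, so their windows were wider, and the table of all genes includes genes that the liver may not express. The part of length and of expression in these shares was not tested.

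A window at an annotated start does not widen with the length of the gene, but a gene with several starts had a window at each. The 27 members had 28 starts and the 17492 genes 21263, so all genes had more starts each than members. Within 1 kb of a start, 25 and 6 of 27 members had a peak in the Fasted libraries, against 59.2% and 27.0% of 17492 genes. The Fed libraries held 27 and 24 members, against 63.9% and 57.0% of all genes. The Ern1-LKO libraries held 0 and 16, against 2.83% and 48.5%, and the WT libraries 9 and 23, against 12% and 53.4%. The share of members was above that of all genes in 6 libraries and below it in Fasted replicate 2 (22.2%) and in Ern1-LKO replicate 1.

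**Figure D1:**
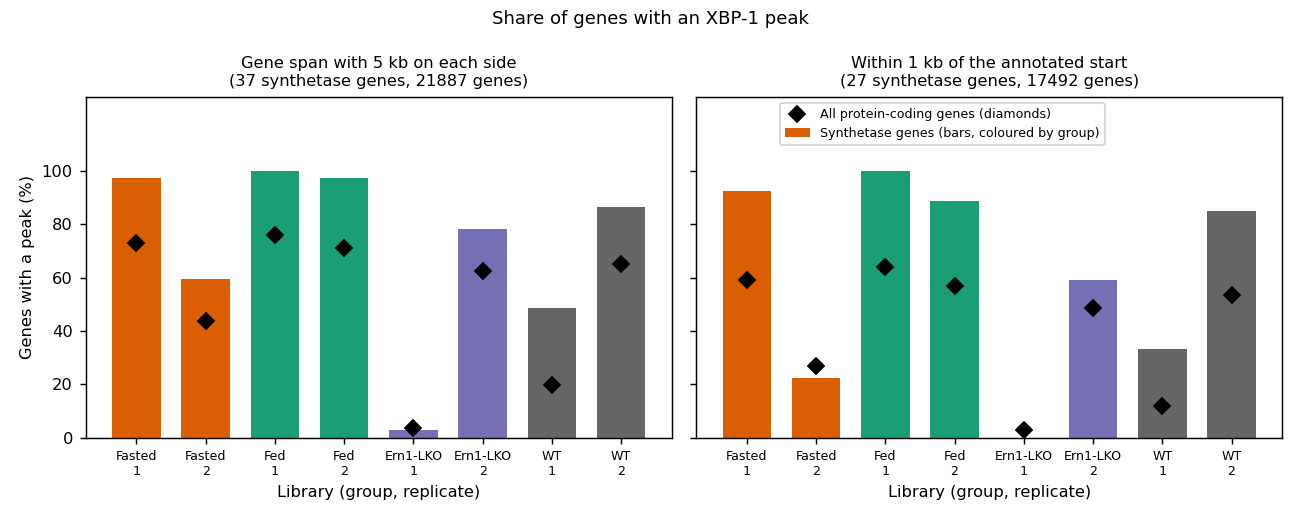
Share of genes with an XBP-1 peak (%) in each of the 8 libraries, for windows of 5 kb around the gene (left) and of 1 kb around the annotated start (right). Bars are synthetase genes coloured by group and diamonds are all protein-coding genes; the bars lie above the diamonds in most libraries, but not in Ern1-LKO replicate 1 in either panel (1 of 37 and 0 of 27 members) nor in Fasted replicate 2 in the right panel (6 of 27).

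Every member had a peak in at least 2 libraries, and the median member had a peak in 6 of the 8, against 5 for all genes. Vars alone had a peak in all 8 libraries, as 2.64% of all genes did. A further 12 members had a peak in 7 libraries, in each case all but Ern1-LKO replicate 1. Among these were the cytosolic Dars, Eprs, Aars, Qars and Wars and the mitochondrial Iars2, Ears2 and Yars2. Another 8 members had a peak in 6 libraries and 12 in 5. Apart from the count in all 8 libraries, these numbers have no share of all genes beside them. The list of Ern1-LKO replicate 1 was the shortest, with 698 peaks that reached 3.58% of protein-coding genes. A gap in that library alone therefore does not set a member apart. At the low end, Tars2 had a peak in 4 libraries, Hars2 in 3, and Cars and Pars2 in 2. Overlapping peaks of different libraries formed 209 regions at the members. Of these, 103 were listed in 1 library, 24 in 5, 9 in 6, 7 in 7 and 1, at Vars, in 8.

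**Figure D2:**
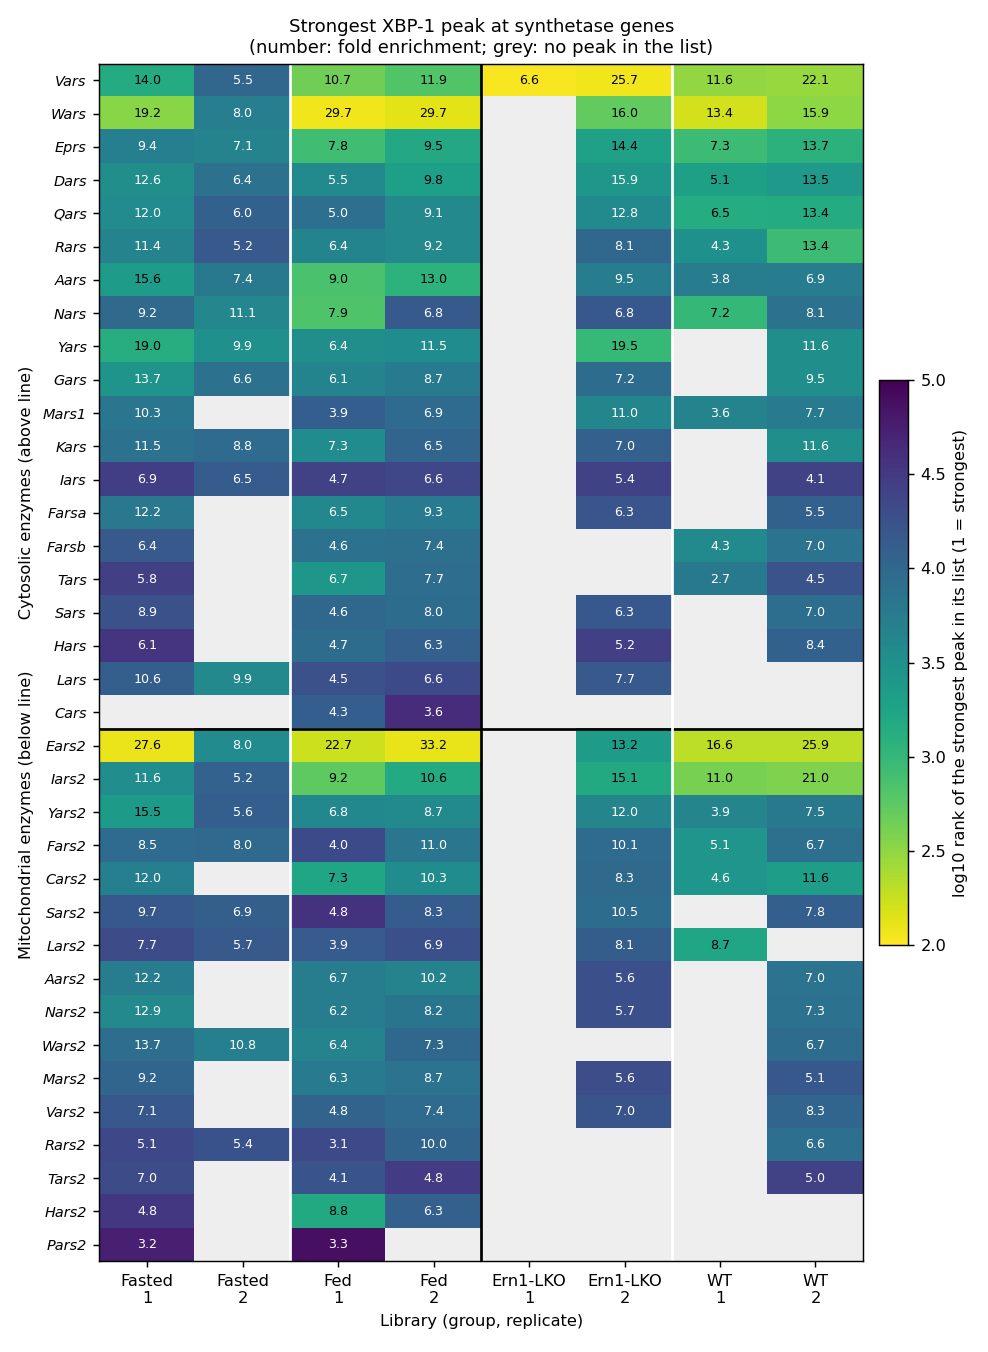
Strongest XBP-1 peak within 5 kb of 36 synthetase genes (rows, cytosolic above and mitochondrial below the black line) in the 8 libraries (columns). The number is the authors' fold enrichment, the colour the log10 rank of the peak in its own list with yellow strongest, and grey marks no listed peak; the Vars row is filled throughout, and Vars, Wars, Ears2 and Iars2 hold most of the yellow and light green cells.

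Fold enrichment below is the authors' ratio of the pileup at a summit to the local background, and a rank is the place of a peak in its own list, with 1 the largest −log10 q. Both describe a peak within its list. Lists of unequal length make ranks incomparable, so membership of the 698 strongest peaks, the length of the shortest list, was used between libraries. Files and annotation give the gene span and start but no exons, so positions are stated relative to these. Vars, Cars, Farsb, Tars, Aars, Gars, Eprs, Wars, Mars1, Sars, Yars and Lars2 were named by rule. Other members described below were picked after their values were seen.

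Vars encodes the cytosolic valyl-tRNA synthetase. Its recurrent region (mm10, chromosome 17, 35000736 to 35001872) covers the lower end of the gene (35000907 to 35016329), with summits 22 to 305 bp inside the gene and 155 to 438 bp from the neighbouring D17H6S56E-5. Fold enrichment was 14.0 and 5.5 in the Fasted libraries and 10.7 and 11.9 in the Fed libraries. It was 6.6 and 25.7 in the Ern1-LKO libraries and 11.6 and 22.1 in the WT libraries. The ranks were 1409 and 10235 in Fasted, 450 and 659 in Fed, 108 and 117 in Ern1-LKO and 304 and 294 in WT libraries. The peak thus lay among the 698 strongest in both Fed, both Ern1-LKO and both WT libraries and in neither Fasted library. In Ern1-LKO replicate 1 the 698 strongest peaks are the whole list, so any listed peak is among them.

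Wars encodes the cytosolic tryptophanyl-tRNA synthetase, which is also known as an interferon-induced gene. Its strongest region (chromosome 12, 108893830 to 108894504) lies at the upper end of the gene, and its summits were 79 to 177 bp from the end of the neighbouring Wdr25. Fold enrichment was 19.2 and 8.0 in the Fasted libraries and 29.7 in each Fed library. No peak was listed in Ern1-LKO replicate 1, and the fold was 16.0 in Ern1-LKO replicate 2 and 13.4 and 15.9 in the WT libraries. The Wars peak was among the 698 strongest in Fasted replicate 1 (rank 345), both Fed libraries (117 and 132), Ern1-LKO replicate 2 (522) and both WT libraries (159 and 325), but not in Fasted replicate 2 (5266). Peaks within 5 kb of Wars and of Wdr25 cannot be assigned to either gene from a peak list.

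Among the mitochondrial enzymes, Ears2, the glutamyl-tRNA synthetase, had the highest-ranked start peak in every library that listed it but Ern1-LKO replicate 2, where Iars2 ranked higher. Its region (chromosome 7, 122066758 to 122068002) spans the start, with summits 53 to 146 bp before it and 44 to 137 bp from the end of Ubfd1. Fold enrichment was 27.6 and 8.0 in the Fasted libraries and 22.7 and 33.2 in the Fed libraries. It was 13.2 in Ern1-LKO replicate 2, with no peak in Ern1-LKO replicate 1, and 16.6 and 25.9 in the WT libraries. Its ranks of 124 in Fasted replicate 1, 171 and 126 in Fed and 201 and 199 in WT put it among the 698 strongest peaks. It ranked 3536 in Fasted replicate 2 and 2242 in Ern1-LKO replicate 2. Iars2, the mitochondrial isoleucyl-tRNA synthetase, shares its region (chromosome 1, 185328668 to 185329453) with the end of Bpnt1, and summits lay 146 to 241 bp after its start. Its fold was 11.6 and 5.2 in Fasted, 9.2 and 10.6 in Fed, 15.1 in Ern1-LKO replicate 2 and 11.0 and 21.0 in WT libraries. It was among the 698 strongest in Fed replicate 1 and both WT libraries.

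Eprs, the fused glutamyl- and prolyl-tRNA synthetase, belongs to the multisynthetase complex. Its region (chromosome 1, 185362691 to 185363692) held summits 25 to 337 bp after the annotated start in 7 libraries and had no other gene within 5 kb. Fold enrichment was 9.4 and 7.1 in the Fasted libraries, 7.8 and 9.5 in the Fed libraries, 14.4 in Ern1-LKO replicate 2 and 7.3 and 13.7 in the WT libraries. No peak was listed in Ern1-LKO replicate 1, and none of the others was among the 698 strongest. Mars1, the methionyl-tRNA synthetase of the same complex, had a start peak (chromosome 10, 127311395 to 127312040) in 6 libraries, with summits 168 to 230 bp after the start. Its fold was 10.3 in Fasted replicate 1, with no peak in Fasted replicate 2, and 3.9 and 6.9 in the Fed libraries. It was 11.0 in Ern1-LKO replicate 2, with no peak in Ern1-LKO replicate 1, and 3.6 and 7.7 in the WT libraries. Mars1 thus had a peak in 1 of 2 Fasted and both Fed libraries, and in 1 of 2 Ern1-LKO and both WT libraries. A weaker Mars1 region inside the gene (127299423 to 127300070), listed in 5 libraries, lay 3550 bp from Ddit3, the gene of the stress factor CHOP.

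Of the 8 members of the multisynthetase complex, 8 and 7 had a peak in the Fasted libraries, where 73.1% and 43.6% of all genes had one, and 8 in each Fed library, against 76.1% and 71.2%. In the Ern1-LKO libraries 0 and 8 had a peak, against 3.58% and 62.4% of all genes, and in the WT libraries 5 and 7, against 19.6% and 65.0%. Within 1 kb of the start, for the 6 of them with a window, the counts were 5 and 1 in Fasted, against 59.2% and 27.0% of all genes, and 6 and 4 in Fed, against 63.9% and 57.0%. They were 0 and 4 in Ern1-LKO, against 2.83% and 48.5%, and 3 and 5 in WT libraries, against 12% and 53.4%. The share in Fasted replicate 2, 1 of 6, was below that of all genes. Not all of these peaks lie at the synthetase gene itself. The region of Qars, the glutaminyl-tRNA synthetase, listed in 7 libraries (chromosome 9, 108516347 to 108518336), lay 1753 bp beyond the gene and 712 bp from Qrich1. Dars, the aspartyl-tRNA synthetase, had 1 region at its start (chromosome 1, 128416763 to 128417539) and another 4176 bp beyond its far end and 174 bp from Mcm6. Each was listed in 6 libraries. Only the region near Mcm6 was listed in Fasted replicate 2, and only the start region in WT replicate 1.

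Aars, the alanyl-tRNA synthetase, also had peaks at different sites. Its start region (chromosome 8, 111033657 to 111034525) was listed in 5 libraries, with a start-peak fold of 11.6 in Fasted replicate 1, 9.0 and 8.6 in the Fed libraries, 8.5 in Ern1-LKO replicate 2 and 5.3 in WT replicate 2. A region beyond its other end (111056215 to 111057358), 1091 bp from Aars and 321 bp from Exosc6, was listed in 6 libraries and was the stronger in all of them but Fed replicate 1. Its fold there was 15.6 and 7.4 in the Fasted libraries, 13.0 in replicate 2 of Fed, 9.5 in replicate 2 of Ern1-LKO and 6.9 in replicate 2 of WT. WT replicate 1 held neither region, and its Aars peak (fold 3.8) lay 2991 bp after the start. The start of Aars therefore had no peak in Fasted replicate 2, Ern1-LKO replicate 1 and WT replicate 1.

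Gars, the glycyl-tRNA synthetase, had its peak at the start in every library that listed it (chromosome 6, 55037730 to 55038722), with summits 130 to 240 bp after the start. Fold enrichment was 13.7 and 6.6 in the Fasted libraries, 6.1 and 8.7 in the Fed libraries, 7.2 in Ern1-LKO replicate 2 and 9.5 in WT replicate 2. Neither Ern1-LKO replicate 1 nor WT replicate 1 listed a peak. Yars, the tyrosyl-tRNA synthetase, was listed in the same 6 libraries, with a region (chromosome 4, 129188741 to 129190345) shared with the end of S100pbp. Its fold was 19.0 and 9.9 in Fasted, 6.4 and 11.5 in Fed, 19.5 in Ern1-LKO replicate 2 and 11.6 in WT replicate 2. The summits lay 684 to 943 bp before the Yars start, except in Fed replicate 1, where the summit was 147 bp after it. Sars, the seryl-tRNA synthetase, had a peak of fold 8.9 in Fasted replicate 1, 4.6 and 8.0 in Fed, 6.3 in Ern1-LKO replicate 2 and 7.0 in WT replicate 2. The other 3 libraries listed none, and in Fasted replicate 1 the strongest Sars peak was inside the gene, 11598 bp from the start.

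The 13 synthetase genes listed as ATF4-responsive, a list drawn up from known targets in mouse and human cells, were Aars, Cars, Eprs, Gars, Iars, Lars, Mars1, Nars, Sars, Tars, Vars, Wars and Yars. A peak was listed at 12 and 9 of them in the Fasted libraries, 13 in each Fed library, 1 and 11 in the Ern1-LKO libraries and 7 and 11 in the WT libraries. All 20 cytosolic members gave 19 and 13 in Fasted, 20 in each Fed library, 1 and 17 in Ern1-LKO and 11 and 18 in WT. The 17 mitochondrial members gave 17 and 9 in Fasted, 17 and 16 in Fed, 0 and 12 in Ern1-LKO and 7 and 14 in WT. Over all genes, a peak was listed at 73.1% and 43.6% in Fasted and at 76.1% and 71.2% in Fed. The shares of all genes were 3.58% and 62.4% in Ern1-LKO and 19.6% and 65.0% in WT. The median number of libraries with a peak was 6 for cytosolic and for ATF4-responsive members and 5 for mitochondrial members, against 5 for all genes.

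Lars2, the mitochondrial leucyl-tRNA synthetase, had a peak in 6 libraries but had a start peak only in Fasted replicate 1 and in both Fed libraries. In Fasted replicates 1 and 2, Fed replicate 2 and Ern1-LKO replicate 2 its strongest peak lay in a region inside the gene, 89253 bp from the start and 6495 bp from the far end (chromosome 9, 123456005 to 123456271). The fold of its strongest peak was 7.7 and 5.7 in Fasted, 3.9 and 6.9 in Fed, 8.1 in Ern1-LKO replicate 2 and 8.7 in WT replicate 1, the last at another site, 42057 bp from the start. Ern1-LKO replicate 1 and WT replicate 2 listed none. Of the mitochondrial members, Pars2, the prolyl-tRNA synthetase, had a peak in the fewest libraries, only in Fasted replicate 1 (fold 3.2, rank 53950 of 53973) and in Fed replicate 1 (fold 3.3, rank 75995 of 82975). Hars2, the mitochondrial histidyl-tRNA synthetase, shares its 5 kb window with Hars. Its strongest peaks in Fasted replicate 1 and Fed replicate 1 lay 182 and 29 bp from the end of Zmat2. Both Fed libraries listed a peak with its summit inside Hars2, near the end that overlaps the end of Hars. The summit lay 229 bp inside Hars2 and 226 bp from the end of Hars in Fed replicate 1. In Fed replicate 2 these distances were 220 and 217 bp.

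Whether feeding state changed the number of synthetase genes with a peak was compared over libraries. The mean was 29.0 ± 9.9 members in Fasted and 36.5 ± 0.7 in Fed (SD, n = 2 each), a difference of -7.5 (exact two-sided permutation p = 0.67). The groups met at 36 members, the count of Fasted replicate 1 and of Fed replicate 2. Without Fasted replicate 2 the difference was -0.5, and without Fasted replicate 1 it was -14.5. At annotated starts the means were 15.5 ± 13.4 in Fasted and 25.5 ± 2.1 in Fed, a difference of -10.0 (exact p = 0.67). That difference was -0.5 without Fasted replicate 2 and -19.5 without Fasted replicate 1.

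No member had a peak in both Fasted libraries and neither Fed library, a pattern of 0.0731% of all genes. The reverse pattern, both Fed and neither Fasted, was found at Cars, the cysteinyl-tRNA synthetase, and at 1.20% of all genes. The Cars peaks had a fold of 4.3 in Fed replicate 1 and 3.6 in Fed replicate 2, with ranks of 12600 and 41421 and summits 101 and 143 bp inside the upper end of the gene (chromosome 7, 143557230 to 143600090). The rank in Fed replicate 2 lies beyond the whole length of the list of Fasted replicate 2, but within that of Fasted replicate 1 (53973 peaks). The rank in Fed replicate 1 lies within the length of both Fasted lists. Ranks of different lists are not comparable, and why neither Fasted library listed a peak at Cars was not tested. No other library listed a peak at Cars. With peaks of a fold of at least 5 the count was again 1, but the member was Hars2.

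Equal numbers of top peaks remove the difference in list length. Among the 698 strongest peaks, 2 and 0 members were found in the Fasted libraries, against 3.91% and 2.93% of all genes. The Fed libraries held 5 and 3, against 3.99% and 3.95% of all genes. The members were Ears2 and Wars in Fasted replicate 1, Iars2, Ears2, Wars, Vars and Nars in Fed replicate 1, and Ears2, Wars and Vars in Fed replicate 2. The groups did not overlap, with means of 1.0 ± 1.4 in Fasted and 4.0 ± 1.4 in Fed (SD, n = 2 each, exact permutation p = 0.33, the smallest possible). The difference of -3.0 was -2.0 without Fasted replicate 2. With the 19237 strongest peaks, the length of the shorter Fasted list, the counts were 28 and 22 members in Fasted, against 57.4% and 43.6% of all genes, and 32 in each Fed library, against 58.6% and 56.7%. These groups did not overlap either (difference -7.0, exact p = 0.33). Without Fasted replicate 2 the difference was -4.0, and the share of all genes in Fasted replicate 2 also lay below that in the other libraries.

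**Figure D3:**
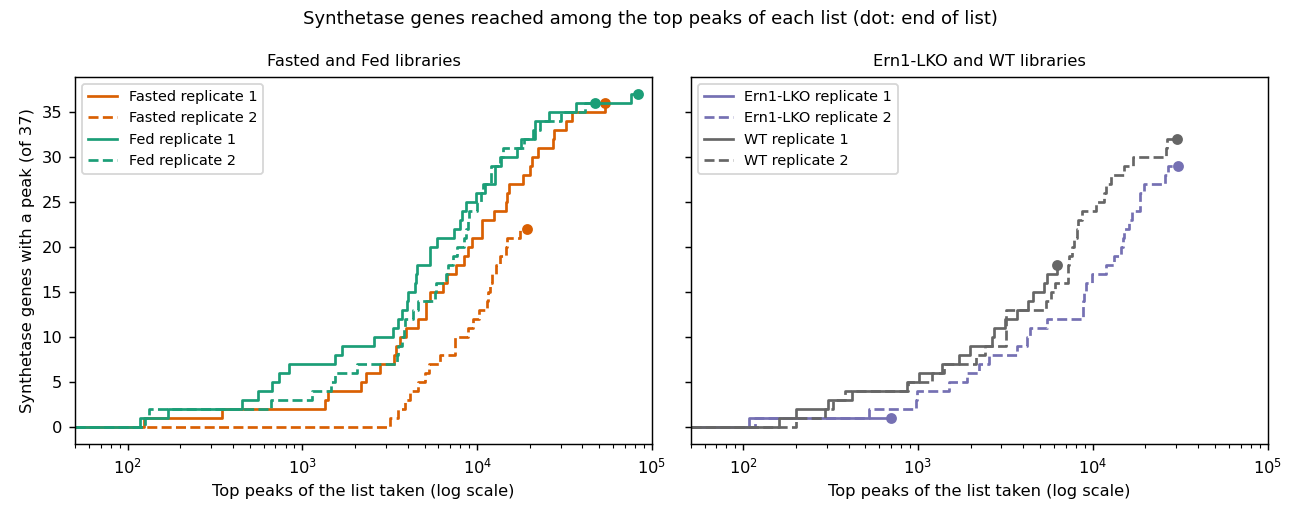
Number of synthetase genes (of 37) with a peak among the top peaks of each list, as more peaks are taken in order of −log10 q (log scale), for Fasted and Fed libraries (left) and Ern1-LKO and WT libraries (right). Dots mark the end of each list; the curve of Fasted replicate 2 lies lowest in the left panel and ends at 22 members, and the curve of Ern1-LKO replicate 1 ends at 1 member.

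The question whether the loss of Ern1, whose product splices Xbp1 mRNA, changed peaks at synthetase genes rested on lists that differed most in length. The mean was 15.0 ± 19.8 members in Ern1-LKO and 25.0 ± 9.9 in WT (SD, n = 2 each), a difference of -10.0 (exact permutation p = 0.67), and the groups overlapped. Without Ern1-LKO replicate 1 the difference had the opposite sign, 4.0, and without Ern1-LKO replicate 2 it was -24.0. Without WT replicate 1 it was -17.0, and without WT replicate 2 it was -3.0. At annotated starts the means were 8.0 ± 11.3 in Ern1-LKO and 16.0 ± 9.9 in WT (difference -8.0, exact p = 0.67). Without Ern1-LKO replicate 1 the difference at starts was 0.0, with 16 members in Ern1-LKO replicate 2 and a mean of 16.0 in WT. It was -16.0 without Ern1-LKO replicate 2, -15.0 without WT replicate 1 and -1.0 without WT replicate 2. Among the 698 strongest peaks, 1 and 2 members were found in Ern1-LKO, against 3.58% and 3.83% of all genes, and 4 in each WT library, against 3.54% and 4.01%. These were Vars in Ern1-LKO replicate 1, Vars and Wars in Ern1-LKO replicate 2 and Iars2, Ears2, Wars and Vars in both WT libraries. The counts did not overlap (difference -2.5, exact p = 0.33, the smallest possible). For Ern1-LKO replicate 1 the 698 peaks are the whole list, down to the q cutoff, whereas for the other libraries they are its strongest part. Without Ern1-LKO replicate 1 the difference was -2.0, and without WT replicate 1 it was -2.5. Ears2 and Iars2 kept a peak in Ern1-LKO replicate 2, at ranks 2242 and 1507.

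No member had a peak in both Ern1-LKO libraries and neither WT library, and no gene in the annotation did (0.0%). Both WT and neither Ern1-LKO library listed a peak at Farsb and Tars, and at 0.896% of all genes. Farsb encodes the beta subunit of the cytosolic phenylalanyl-tRNA synthetase and Tars the threonyl-tRNA synthetase. At Farsb the fold was 6.4 in Fasted replicate 1, 4.6 and 7.4 in the Fed libraries and 4.3 and 7.0 in the WT libraries, with no peak in Fasted replicate 2. The Farsb summit lay 50 bp before the start in WT replicate 1 and 213 bp after it in WT replicate 2, in peaks that did not overlap. At Tars the fold was 5.8 in Fasted replicate 1, 6.7 and 7.7 in the Fed libraries and 2.7 and 4.5 in the WT libraries, again with none in Fasted replicate 2. Its peak in WT replicate 1 ranked 6200 of 6258 and had its summit 208 bp before the start, against 97 bp after it in WT replicate 2. Farsa, the alpha subunit that pairs with Farsb, had a peak in Ern1-LKO replicate 2 (fold 6.3), 545 bp from Syce2 and 3399 bp beyond Farsa, and none in WT replicate 1. With equal numbers of top peaks the count was again 2, but the members were Iars2 and Ears2.

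Start peaks of the members lay mostly downstream of the annotated start, as they did over all genes. The median summit was 154 and 193 bp after the start for members in the Fasted libraries, against 151 and 163 bp for all genes. In the Fed libraries it was 126 and 98 bp for members, against 138 and 129 bp for all genes. It was 181 bp in Ern1-LKO replicate 2, against 139 bp for all genes. In the WT libraries it was 146 and 127 bp, against 20 and 121 bp. The median rested on 6 members in Fasted replicate 2 and 9 in WT replicate 1. In WT replicate 1 the quartiles for members were -93 and 302 bp. There 5 of the 9 member summits (55.6%) lay downstream, against 53.3% for all genes. In 4 members the start had a peak in every library but Ern1-LKO replicate 1, a pattern of 7.96% of 17492 genes. These were Eprs, Ears2, Iars2 and Yars2, the mitochondrial tyrosyl-tRNA synthetase. Yars2 had a fold of 15.5 and 5.6 in Fasted, 6.8 and 8.7 in Fed, 12 in Ern1-LKO replicate 2 and 3.9 and 7.5 in WT libraries. Its summit lay 422 bp before the start in WT replicate 1 and 60 to 450 bp after it in the others.

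**Figure D4:**
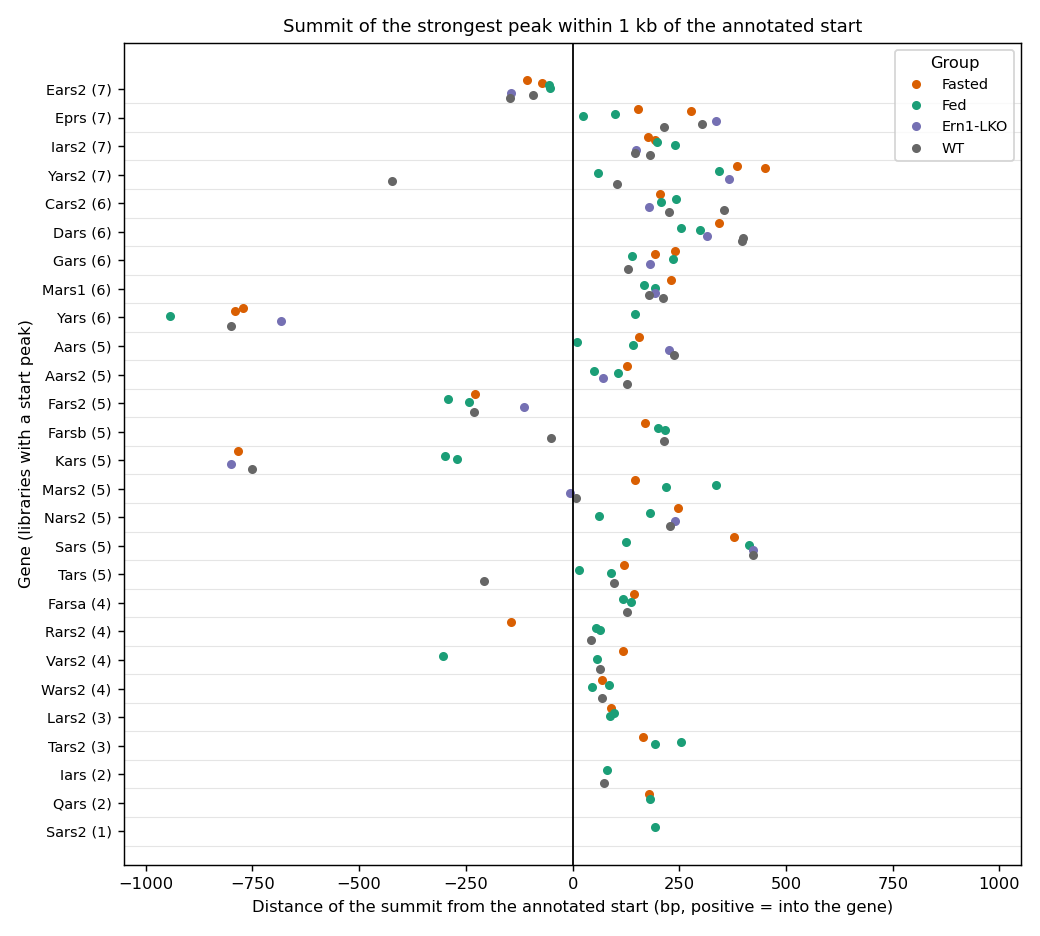
Distance (bp, positive into the gene) from the annotated start to the summit of the strongest peak within 1 kb, for the 27 synthetase genes with an annotated start. Each dot is 1 library coloured by group, and the number of libraries with a start peak is in parentheses; most dots lie to the right of the start, while those of Ears2, Fars2 and Kars, and all but 1 of Yars, lie to its left.

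Not all peaks at members lay at starts. Of the regions at members with an annotated start, 26 of 88 and 6 of 17 were within 1 kb of that start in the Fasted libraries and 29 of 116 and 24 of 67 in the Fed libraries. The counts were 16 of 46 in Ern1-LKO replicate 2 and 9 of 15 and 23 of 53 in the WT libraries, and Ern1-LKO replicate 1 held no region. In Fasted replicate 2 the strongest peak at a member was the start peak in 6 of 16 members (37.5%), against 49.2% of all genes in that library. In Fasted replicate 1 this held for 17 of 27 members (63.0%, all genes 65.5%), and in the Fed libraries for 22 and 18 of 27 (81.5% and 66.7%, all genes 66.1% and 64.1%). It held for 13 of 22 members in Ern1-LKO replicate 2 (59.1%, all genes 66.9%) and for 9 of 13 and 18 of 26 in the WT libraries (69.2% each, all genes 54.7% and 70.4%). At Wars2, the mitochondrial tryptophanyl-tRNA synthetase, a recurrent region lay inside the gene, 77846 bp from the start and 2294 bp from the far end (chromosome 3, 99218737 to 99219095). There the fold was 13.7 and 10.8 in the Fasted libraries, and the region was also listed in both Fed libraries and WT replicate 2. At Lars, the cytosolic leucyl-tRNA synthetase, a region 13945 bp from the nearer gene end was listed in both Fasted libraries (fold 10.6 and 9.9), both Fed libraries and Ern1-LKO replicate 2.

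Other genes of the pathway, in lists chosen with earlier results of these data known, showed peaks in the same libraries. Of 27 such genes, 26 and 13 had a peak in the Fasted libraries, 27 in each Fed library, 0 and 21 in the Ern1-LKO libraries and 9 and 24 in the WT libraries, and none had a peak in all 8. Of all genes, 73.1% and 43.6% had a peak in the Fasted libraries, 76.1% and 71.2% in Fed, 3.58% and 62.4% in Ern1-LKO and 19.6% and 65.0% in WT libraries. With 3.58% of all genes in Ern1-LKO replicate 1 and 2.64% in all 8 libraries, counts of 0 in lists of this size lie near the background. The lists cover scaffolds of the multisynthetase complex such as Aimp1 and Aimp2, and proofreading and nuclear export of tRNA. They also cover the pathway that makes selenocysteine on its tRNA, the making of mitochondrial glutaminyl and formylmethionyl tRNA, and the elongation factors of translation. The 5 scaffold and paralogue genes of the synthetases gave 5 and 2 in Fasted, 5 in each Fed library, 0 and 4 in Ern1-LKO and 1 and 5 in WT. The 5 genes of tRNA editing and export gave 4 and 3 in Fasted, 5 in each Fed library, 0 and 3 in Ern1-LKO and 2 and 3 in WT. The 5 genes of the selenocysteine tRNA pathway gave 5 and 1 in Fasted, 5 in each Fed library, 0 and 5 in Ern1-LKO and 3 and 5 in WT. Each of these lists was complete in both Fed libraries and empty in Ern1-LKO replicate 1. The 4 genes of mitochondrial glutaminyl and formylmethionyl tRNA gave 4 and 2 in Fasted, 4 in each Fed library, 0 and 2 in Ern1-LKO and 0 and 3 in WT. The 8 elongation factor genes gave 8 and 5 in Fasted, 8 in each Fed library, 0 and 7 in Ern1-LKO and 3 and 8 in WT.

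Xpot, the exporter of tRNA from the nucleus, picked here after its values were seen, had a peak in all libraries but Ern1-LKO replicate 1. Its fold was 13.6 and 11.2 in Fasted, 9.4 and 12.8 in Fed, 9.4 in Ern1-LKO replicate 2 and 4.6 and 13.6 in WT libraries. Of its peaks, that of Fed replicate 1, at rank 696, was among the 698 strongest.

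The authors also called peaks on the pooled libraries of each group. The pooled lists held a peak at 34 members in Fasted and 37 in Fed, against 69.0% and 77.3% of all genes. They held a peak at 18 members in Ern1-LKO and 25 in WT, against 46.4% and 48.6%. Their lengths were 41795 peaks in Fasted, 84544 in Fed, 14428 in Ern1-LKO and 13841 in WT. In Ern1-LKO and WT the pooled list was shorter than that of replicate 2 alone (30796 and 30327). The pooled lists have no replicates and were tested no further. The members without a peak in the pooled Fasted list were Pars2, Cars and Hars2.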

How the data were processed

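XBP-1 ChIP-seq was analysed from 12 deposited peak lists, of which 8 hold a library each and 4 hold the pooled libraries of a group. The submitters' processing notes name MACS2 2.2.1, Bowtie2 2.2.5, FastQC 0.11.3 and bcl2fastq, and build mm10. Per the file headers, the lists came from MACS 2.1.1.20160309 with a q cutoff of 0.05 and 1 tag kept per position, against an input of 39671280 kept tags (Fasted, Fed) or 16513198 kept tags (Ern1-LKO, WT). The authors deposited for each peak a fold enrichment (a ratio), the pileup signal, and the −log10 of p-value and q-value. These were used only to rank, filter and describe peaks within a list: peaks were ranked by −log10 q, with ties broken by fold and pileup. How many peaks pass the cutoff depends on the depth and enrichment of each library, so list length bears on every count.

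Summits were matched to gene spans and annotated starts of RefSeq GRCm38.p6 with Python 3.11.15, numpy 2.4.6 and pandas 2.3.3. Peaks of different libraries overlapping by 1 bp or more formed regions. Counts of members per library were compared with exact two-sided permutation tests within each pair of groups, and most other counts stand beside those of 21887 genes. On simulated lists, 1600 of 1600 planted gene-window peaks were recovered. Values of every library are given for members with a peak in all 8 libraries, members in a one-sided count and a set listed by name (Aars, Gars, Eprs, Wars, Mars1, Sars, Yars, Farsb, Lars2). The values of 1 member are not reported here; it is included in the counts. The members and lists were chosen with earlier results of these data known. Alternatives were limits on −log10 q and fold, windows at gene ends or starts, equal numbers of top peaks, the pooled lists, a block for the replicate number, and each library left out in turn. The input libraries entered only through the authors' calls. No genome sequence was used, so letters under the summits were not searched.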

Additional observations from a re-analysis of the deposited data

How the results depend on the processing

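The difference between Fasted and Fed in members with a peak was negative under each of 12 alternatives, from -14.5 without Fasted replicate 1 to -0.5 without Fasted replicate 2, and -2.0 at a fold of at least 5 and -13.0 within 1 kb of a gene end. The difference between Ern1-LKO and WT ranged from -24.0 to 4.0 when each library was left out, the positive value being that without Ern1-LKO replicate 1, and was negative under the other 10 alternatives. At annotated starts, leaving out each library gave -19.5 to -0.5 for Fasted minus Fed and -16.0 to 0.0 for Ern1-LKO minus WT. Among the 698 strongest peaks it gave -4.0 to -2.0 and -3.0 to -2.0, and among the 19237 strongest -10.0 to -4.0 for Fasted minus Fed. Of the alternatives counted above, 1 keeps the main differences by construction and changes only the p-value. This was the replicate number as a block, with differences of -7.5 and -10.0 (exact permutation p = 0.50 each, the smallest that 2 pairs allow). The numbers are not known to pair libraries: over genes with a peak in all 4 libraries, deviations of same-numbered libraries correlated at 0.12 in Fasted and Fed (9217 genes) and 0.46 in Ern1-LKO and WT (597 genes).

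The count of members in all 8 libraries was 0 with equal numbers of top peaks and 0 at annotated starts, and 1 to 13 when each library was left out. The value of 13 was that without Ern1-LKO replicate 1, and no share of all genes stands beside it. The 4 one-sided counts depended on the setting, and the cause was not tested. Under these settings they were counted over members only, with no share of all genes beside them. Both Fasted and neither Fed gave 1 at a −log10 q of 10 (Lars). Both Fed and neither Fasted gave 0 at a −log10 q of 5, 3 at 10, 3 within 1 kb of a gene end, 3 with equal numbers of top peaks, 0 at annotated starts, 3 with the pooled lists and 1 to 14 when each library was left out, the highest without Fasted replicate 1. Both Ern1-LKO and neither WT gave 1 with the pooled lists (Sars2) and 0 to 1 when each library was left out. Both WT and neither Ern1-LKO gave 1 at a −log10 q of 5 (Farsb), 1 at 10 (Nars), 0 at a fold of 5, 8 with the pooled lists and 2 to 16 when each library was left out, the highest without Ern1-LKO replicate 2 and 5 without WT replicate 1. The counts of 14 and 16 each rested on absence from a single library. These libraries were Fasted replicate 2 and Ern1-LKO replicate 1, where 43.6% and 3.58% of all genes had a peak. Cars was not among the members in both Fed and neither Fasted library at a −log10 q of 10 or with equal top peaks (Tars, Hars and Hars2 each time), nor at a fold of 5 (Hars2). With equal top peaks the 2 members listed only on the WT side were Iars2 and Ears2, in place of Farsb and Tars.

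The window at annotated starts, the 698 top peaks for Fasted and Fed and the libraries left out under these settings were chosen after seeing the data. Presence in lists of 698 to 82975 peaks limits every count. With 2 libraries a group the exact two-sided permutation test cannot give a p below 0.33. Peak lists hold no reads, so binding could not be compared quantitatively between libraries.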
